A study of Mus musculus with 10 samples.

Results

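Gad1, Gad2, Slc32a1 and Abat make, store and break down GABA, the main inhibitory transmitter of the brain, and they are described here in the telencephalon of mouse embryos that carry mutant alleles of Polr1a. The genes were chosen by name, and all 4 have a value in each of the 10 samples, among 14796 named genes in the deposited table. RNA was sequenced from telencephalon at embryonic day 12 in 2 samples with a null allele of Polr1a, 3 samples with a missense allele (p.C1559F) and 5 wild-type samples. Polr1a codes for the biggest subunit of RNA polymerase I, which makes ribosomal RNA. Both null samples and 2 of the wild types have titles that begin with Polr_2048, called the null set here. The 3 missense samples and the other 3 wild types have titles that begin with Polr_2138, called the missense set, and each mutant group is set against the wild types that share its title number. The labels give neither the zygosity of the mutants, nor the strain or sex of the embryos, nor whether samples came from separate litters, so p-values here reflect only how these particular samples spread.

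Glutamate decarboxylase turns glutamate into GABA and exists as 2 enzymes from separate genes. Gad1 encodes GAD67, which supplies most of the GABA in the cell body, and Gad2 encodes GAD65, which is associated with synaptic vesicles. Slc32a1 encodes the vesicular transporter VGAT, which loads GABA (and glycine) into vesicles, and Abat encodes GABA transaminase, the mitochondrial enzyme that degrades GABA. In the embryonic telencephalon, GABAergic neurons arise in the ganglionic eminences of the ventral wall under the Dlx homeobox genes, and their precursors migrate into the cortex. Gad1 is also transcribed in embryonic splice forms that encode shortened proteins, which 1 value per gene does not separate.

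Gad1, Gad2 and Slc32a1 lie on chromosome 2 and Abat lies on chromosome 16, all on the plus strand. To show what lies in front of the 3 genes that make and load GABA, the stretches just upstream of their starts are printed 5′ to 3′ from the RefSeq promoter windows of build GRCm38.p6, each ending before the first exon that RefSeq or GENCODE annotates in the window. The capitals mark TAAT on either strand, the core of many homeodomain sites, and CANNTG, the E-box of basic helix-loop-helix factors.
Gad1, chr2:70561879-70562041, plus strand: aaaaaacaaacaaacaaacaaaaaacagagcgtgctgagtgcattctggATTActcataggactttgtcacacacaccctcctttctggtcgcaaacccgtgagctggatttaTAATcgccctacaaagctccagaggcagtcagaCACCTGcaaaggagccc
Gad2, chr2:22622077-22622204, plus strand: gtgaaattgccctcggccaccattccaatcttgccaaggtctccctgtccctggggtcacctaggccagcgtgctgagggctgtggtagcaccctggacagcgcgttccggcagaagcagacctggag
Slc32a1, chr2:158610508-158610757, plus strand: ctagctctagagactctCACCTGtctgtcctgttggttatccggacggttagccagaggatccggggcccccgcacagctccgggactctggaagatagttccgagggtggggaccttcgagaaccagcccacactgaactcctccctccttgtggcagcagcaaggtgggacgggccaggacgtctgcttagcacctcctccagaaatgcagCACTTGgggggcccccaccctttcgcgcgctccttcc

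In the full windows of 300 bases, TAAT was found 2 times for Gad1 and 0 times for Gad2 and Slc32a1, and 58.0% of the 32851 windows in the table hold it. CANNTG was found 1 time for Gad1, 1 time for Gad2 and 2 times for Slc32a1, against 72.3% of all windows with at least 1 match. These matches only describe the letters of the windows. GENCODE also annotates the antisense genes Gad1os across Gad1 and Gm14205 across Slc32a1, and strand use in counting is not stated in the sources used here.

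The values are on the log2 scale of the deposited table, in which the back-transformed values of each sample add up to nearly the same total, and 1 unit is a doubling. No scaling by gene length is stated, and levels are therefore compared between samples and not between genes. The sequencing depth of the samples is unknown. Polr1a itself was at 4.99 and 4.82 in the null samples, against 5.38 in both null-set wild types. The missense samples had 5.09, 5.66 and 5.79, against 5.62, 5.51 and 5.64 in the wild types of their set. As a check of the tissue, Dlx1, a homeobox gene of the ventral telencephalon, was at 6.62 or higher in all 10 samples.

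The null comparison asked how the 4 genes differ with the null allele. Gad2 and Slc32a1 fell, to 39.2% and 51.0% of the wild-type level, while Gad1 and Abat had lower means, at 54.6% and 57.6%, that missed the threshold over all genes. Of the 4 genes, 2 were called lower and 0 higher at a limma adjusted p under 0.05, and 0.128% of all genes tested were called lower and 0.0338% higher. All 4 were lower at an unadjusted p under 0.05, as were 3.28% of all genes. In bulk tissue, fewer GABAergic cells and less RNA of these genes per cell cannot be told apart.

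Gad2, the vesicle-associated decarboxylase, was at 5.99 and 5.78 in the null samples, against 7.10 and 7.37 in null-set wild types. The groups did not overlap, and 1.11 separated the higher null from the lower wild type. The mean was 5.89 ± 0.15 in null samples and 7.24 ± 0.19 in wild types (SD, n = 2 each). The log2 change was -1.35 (SE 0.15, 95% interval -1.68 to -1.02, limma adjusted p = 0.00996), the 3rd smallest p of all genes. The call was lost without null 2 (log2 change -1.24, adjusted p = 0.100) and without wild type 2 of the null set (-1.22, 0.0691). It was also lost with variances that do not follow the level (adjusted p = 0.0724) and when the 4 null-set samples were fitted alone (0.273).

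Slc32a1, the vesicular transporter, was at 4.40 and 4.58 in the null samples, against 5.51 and 5.41 in null-set wild types. Both null samples lay below both wild types, with a gap of 0.83. The mean was 4.49 ± 0.13 in null samples and 5.46 ± 0.07 in wild types (SD, n = 2 each), a log2 change of -0.97 (SE 0.14, 95% interval -1.29 to -0.66, limma adjusted p = 0.0292). The other 8 samples of the series, mutant and wild type, spanned 0.30, from 5.24 to 5.53, so the null samples stood apart from all of them. The call depended on single samples: it passed in 3 of the 10 limma fits that each left out 1 sample, with log2 changes from -1.07 to -0.88. The adjusted p was 0.150 without null 1, 0.128 without null 2, 0.135 and 0.0957 without wild types 1 and 2 of the null set, 0.0683 and 0.0647 without wild types 1 and 3 of the missense set, and 0.0553 without missense 2.

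Gad1, the decarboxylase of the cell body, was the most variable of the 4 genes. It was at 5.05 and 4.12 in the null samples, against 4.99 and 5.93 in null-set wild types, so null 1 lay above wild type 1 and the groups overlapped. The mean was 4.59 ± 0.66 in null samples and 5.46 ± 0.66 in wild types (SD, n = 2 each). The log2 change of -0.87 (SE 0.35, 95% interval -1.65 to -0.10) missed the threshold (limma adjusted p = 0.531). Its residual SD of 0.44 was larger than that of 77.9% of all genes, against 14.8% for Slc32a1, 32.9% for Gad2 and 38.9% for Abat. A decrease as large as that of Gad2 lies inside the interval, as does one much smaller. The change was -0.41 without null 2 and -0.41 without wild type 2, the samples at the ends of the range. It was -1.34 without null 1 and -1.34 without wild type 1 of the null set.

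Abat, the degrading enzyme, was at 5.25 and 5.71 in the null samples, against 6.17 and 6.38 in null-set wild types. The groups did not overlap, and the gap was 0.46. The mean was 5.48 ± 0.33 in null samples and 6.27 ± 0.15 in wild types (SD, n = 2 each), and the log2 change of -0.80 (SE 0.17, 95% interval -1.16 to -0.43) missed the threshold (limma adjusted p = 0.128). For Gad2, Slc32a1 and Abat both null samples were below both wild types, which held for 14.8% of all genes in this comparison. By exact permutation (2-sided), p was 0.333 for these 3 genes, the smallest that 2 samples against 2 allow, and 0.667 for Gad1.

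**Figure D1:**
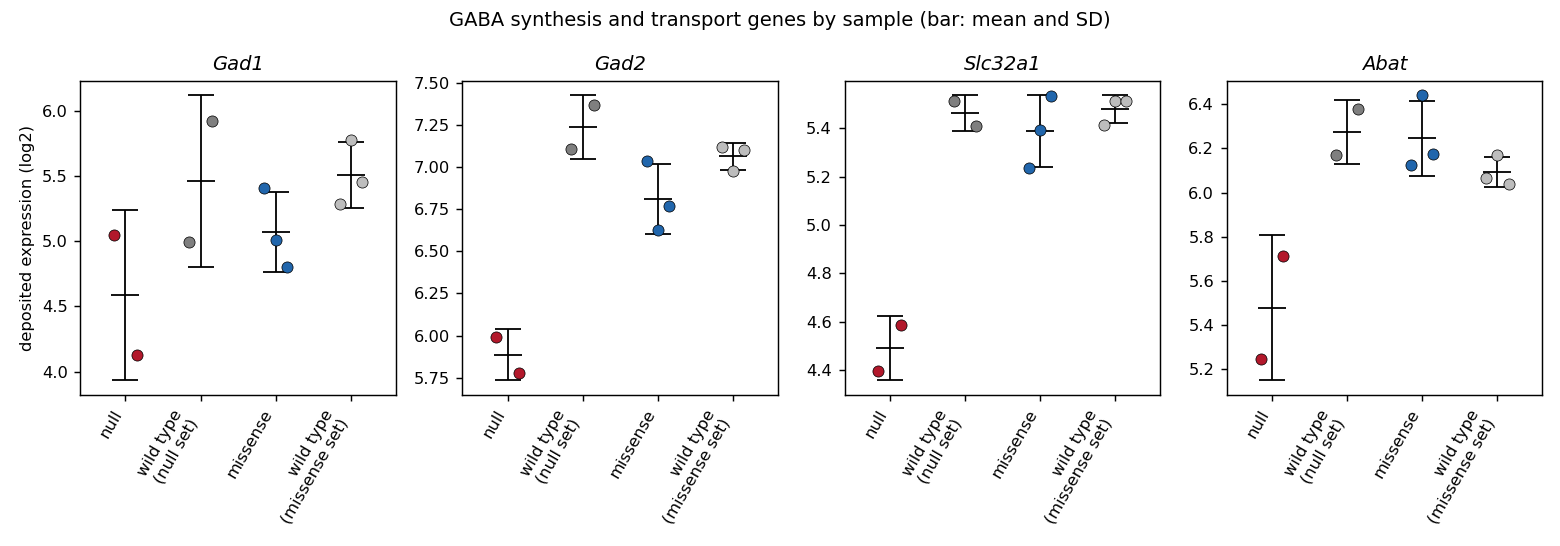
Deposited log2 expression (y axis, a separate scale for each gene) of the 4 genes in each sample (points) by group (x axis), with the mean and SD as bars. For Gad2, Slc32a1 and Abat both null samples lie below all other samples, while Gad1 overlaps between null samples and their wild types, at 5.05 and 4.12 against 4.99 and 5.93.

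The missense comparison asked the same with the missense allele, and none of the 4 genes passed over all genes. Of the 4, 0 were called lower and 0 higher by limma, where 0.00676% of all genes were called lower and 0.0135% higher. At an unadjusted p under 0.05 the count was also 0 of 4, against 2.33% of all genes lower. In 0 of the 4 did all missense samples lie below all their wild types, as 4.89% of all genes did. The means of Gad1, Gad2 and Slc32a1 were below those of the wild types and the mean of Abat was above.

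Gad2 was at 7.03, 6.63 and 6.77 in the missense samples, against 7.12, 6.97 and 7.10 in missense-set wild types. Missense 1 lay above wild type 2, so the groups overlapped. The log2 change was -0.25 (SE 0.12, 95% interval -0.52 to 0.01, limma adjusted p = 0.902), with means of 6.81 ± 0.21 in missense samples and 7.06 ± 0.08 in wild types (SD, n = 3 each).

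Gad1 was at 5.41, 5.01 and 4.80 in the missense samples, against 5.28, 5.78 and 5.46 in missense-set wild types. Missense 2 and 3 lay below all 3 wild types, and missense 1 did not. The log2 change was -0.44 (SE 0.29, 95% interval -1.07 to 0.20, limma adjusted p = 0.902). A decrease larger than the mean change of Gad1 in null samples, and a small increase, both lie inside the interval.

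Slc32a1 was at 5.24, 5.39 and 5.53 in the missense samples, against 5.41, 5.51 and 5.51 in missense-set wild types. The missense samples spanned both sides of the wild types, and the log2 change was -0.09 (SE 0.12, 95% interval -0.35 to 0.17, limma adjusted p = 0.957). Abat was at 6.12, 6.44 and 6.17 in the missense samples, against 6.07, 6.17 and 6.04 in missense-set wild types. Missense 1 lay below the highest wild type, and the log2 change was 0.15 (SE 0.14, 95% interval -0.15 to 0.45, limma adjusted p = 0.929). By exact permutation (2-sided), p was 0.2 for Gad1, Gad2 and Abat and 0.5 for Slc32a1, and no p under 0.1 is possible with 3 samples a group.

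Whether the null and missense alleles differ in their effect was tested directly, and the 2 comparisons share no sample. The difference of effects, null minus missense, was -1.10 for Gad2 (SE 0.19, 95% interval -1.52 to -0.68), the 7th smallest p of all genes, but it missed the threshold (limma adjusted p = 0.287). For Slc32a1 it was -0.88 (SE 0.18, adjusted p = 0.554) and for Abat -0.95 (SE 0.22, adjusted p = 0.582). For Gad1 it was -0.44 (SE 0.45), far from the threshold, with an interval from -1.44 to 0.56. Of the 4 genes 0 passed, against 0.00676% of all genes called lower in the difference, and 3 were lower at an unadjusted p under 0.05, against 1.91% of all genes. With the wild types of both sets pooled, the contrast becomes null minus missense samples, in which allele and set cannot be told apart. That contrast passed for Gad2 and Slc32a1 (limma adjusted p = 0.0407 and 0.0326). Between the wild types of the 2 sets, 14 genes were called.

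**Figure D2:**
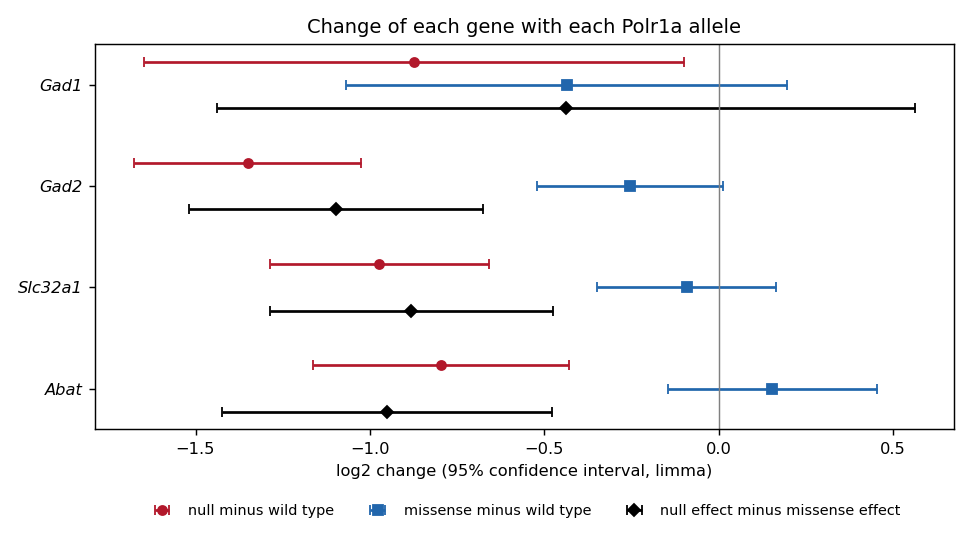
Log2 change of each gene with its 95% confidence interval from limma (x axis) for the null comparison, the missense comparison and the difference of the 2 effects. The null changes run from -1.35 for Gad2 to -0.80 for Abat, and the missense changes from -0.44 for Gad1 to 0.15 for Abat, each missense interval reaching across 0.

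Ordered by group mean, the null samples were lowest for all 4 genes. In a step from a mutant group to a group of the other set, allele and set cannot be told apart. For Gad2 the order was null (5.89), missense (6.81), wild type of the missense set (7.06) and wild type of the null set (7.24). The step of 0.92 from null to missense exceeded the larger SD of the pair, 0.21, as did the step of 0.25 from missense to its wild types, and the step of 0.17 between the wild types did not exceed its SD of 0.19. For Slc32a1 the null mean of 4.49 was followed by missense at 5.39 and by the wild types of the null and missense sets at 5.46 and 5.48, and the last 3 lay within 1 SD of their neighbours. For Abat the null mean of 5.48 was followed by wild type of the missense set (6.09), missense (6.25) and wild type of the null set (6.27), and these 3 also lay within 1 SD of their neighbours. For Gad1 no neighbouring groups differed by more than the larger SD of the pair.

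The 4 genes were compared with each other inside each sample, where the scaling of the sample drops out. The log2 difference between Gad2 and Abat was 0.41 ± 0.48 in null samples and 0.96 ± 0.04 in their wild types (SD, n = 2 each), lower in both null samples than in both wild types. How often this holds for other pairs of genes was not computed. In the missense set it was 0.56 ± 0.36 in missense samples and 0.97 ± 0.15 in wild types (SD, n = 3 each), with overlap. The difference between Gad2 and Slc32a1 was 1.40 ± 0.29 in null samples and 1.77 ± 0.26 in wild types (SD, n = 2 each), and that between Slc32a1 and Abat was -0.99 ± 0.20 in null samples and -0.81 ± 0.22 in wild types (SD, n = 2 each), both with overlapping samples. The exact permutation p was 0.333 for Gad2 against Abat, the smallest possible, and 0.667 for both other pairs.

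Across all 10 samples, Gad2 and Slc32a1 had a Pearson r of 0.87, Slc32a1 and Abat of 0.87, Gad1 and Gad2 of 0.78, and Gad1 and Slc32a1 of 0.52. These are descriptions of 10 points in which the 2 null samples lie apart. Within the 6 samples of the missense set, r was -0.10 for Gad2 and Slc32a1, -0.12 for Slc32a1 and Abat, 0.66 for Gad1 and Gad2, and -0.91 for Gad2 and Abat. The positive r of Gad2, Slc32a1 and Abat with each other over all samples was not seen within the missense set.

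The genes whose profile over the 10 samples was most like that of each member were taken from 10682 candidates. Left out were the lowest 25% of genes by mean level, predicted gene models, pseudogenes and genes with only a clone or sequence name. For Gad2 these were Id4 (Pearson r = 0.97), Dpf1 (0.96), Cplx1 (0.96), Dlx1 (0.95) and Sox8 (0.95). Slc32a1 was closest to Dlx1 (0.96), Kndc1 (0.95), Gbx1 (0.94), Rph3a (0.94) and Arl4d (0.94). Gad1 was closest to Celf2 (0.94), Aff2 (0.93), Sel1l3 (0.93), Ddah1 (0.91) and Meis2 (0.90), and Abat to Ywhag (0.91), Asb4 (0.89), Fbxw7 (0.88), Chd5 (0.88) and Celf3 (0.88). Dlx1 was shared by Gad2 and Slc32a1, and no gene of the other lists was shared. By Spearman's rho, 2, 1, 0 and 0 of these 5 genes were again the closest for Gad1, Gad2, Slc32a1 and Abat.

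Other genes of GABA signalling were read from lists ordered by role, 62 of 71 listed genes having a value. In the null comparison 0 of the 62 passed over all genes in limma, while at an unadjusted 0.05 there were 2 higher and 4 lower ones, where 5.04% of all genes were higher and 3.28% lower. Their median log2 change was 0.01, and that of all genes was 0.03. In the missense comparison 0 of the 62 passed, with 0 higher and 2 lower at an unadjusted 0.05, where 3.2% of all genes were higher and 2.33% lower, and a median of 0.00 against 0.02 for all genes.

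Among the reuptake and breakdown genes, Slc6a13 and Slc6a11, which encode the plasma membrane GABA transporters GAT2 and GAT3, did not pass in either comparison. They were low in all samples and had log2 changes of 1.02 and -0.32 in null and of 0.01 and -0.38 in missense. For Slc6a13 the null-set wild types were the lowest group, with a mean of 0.14, against 1.16 in null samples and 1.49 in missense-set wild types. Aldh5a1, the succinate semialdehyde dehydrogenase that follows Abat, was at 5.73 and 5.78 in the null samples, against 5.66 and 5.82 in null-set wild types, a log2 change of 0.02 (SE 0.16, 95% interval -0.33 to 0.36) that did not pass. Its null samples lay between the 2 wild types, whereas those of Abat lay below both.

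Among receptor genes, Gabbr1, a subunit of the metabotropic GABA-B receptor, was at 7.01 and 6.72 in the null samples, against 7.34 and 7.25 in null-set wild types (log2 change -0.43, limma adjusted p = 0.407). Gabbr2, the other subunit, had a log2 change of -0.03. Of the 15 measured subunit genes of the GABA-A receptor, the chloride channel opened by GABA, 7 had a higher and 8 a lower mean in null samples, and 0 passed. Gabrp, the pi subunit, had a log2 change of 1.30 (limma adjusted p = 0.250). Its mean was 3.91 in null samples and 2.61 in their wild types, and 3.90 in missense samples and 3.64 in theirs, so the null-set wild types were the lowest group. In missense samples 6 of these 15 had a higher and 9 a lower mean, none past the threshold. Gabra2, an alpha subunit, had a change of -1.58 at a mean level of 0.14, among the low values of the table.

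Genes that set the response to GABA or supply its precursor did not pass either. Of the chloride transporters, Slc12a2, the importer NKCC1 that keeps chloride high in immature neurons, had a log2 change of -0.31 in null (limma adjusted p = 0.446) and of -0.10 in missense, and Slc12a5, the exporter KCC2, had 0.22 and -0.41. Of 15 genes of glutamate and glutamine supply 9 had a higher mean in null samples, with Slc1a2, a glutamate transporter, at 0.66 (adjusted p = 0.581). Of the receptor anchoring and trafficking genes 9 of 10 had a lower mean in null samples, with Gabarapl1 at -0.32 and Gphn, which encodes the scaffold gephyrin, at -0.25. Of the genes for pyridoxal phosphate, the cofactor of both decarboxylases and of GABA transaminase, Pdxk had a log2 change of 0.17 and Alpl of -0.09 in null. All 6 measured genes of the putrescine route, a minor path to GABA, had a higher mean in null samples, by at most 0.41 (Sat1).

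**Figure D3:**
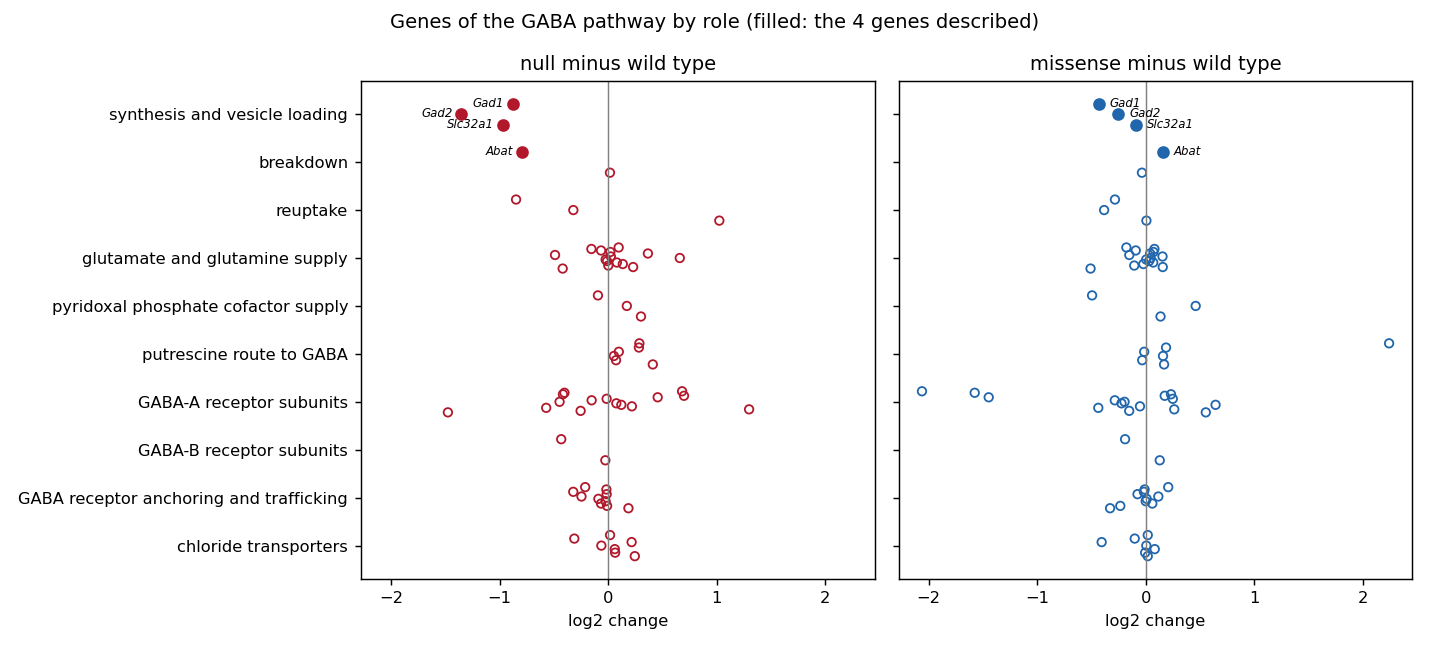
Log2 change (x axis) of every measured gene of the GABA pathway by role (rows), with the null comparison on the left and the missense comparison on the right. The filled points are the 4 genes described, which in null lie between -1.35 and -0.80, while the other 62 genes (open points) have a median of 0.01.

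Of 2 lists for the cells that make GABA in the telencephalon, the transcription factors had a lower summed level in both null samples. The products of such neurons were lower in both null samples by mean log2 level but not by sum. Of 26 transcription factors of the ventral telencephalon, 22 had a lower mean, and the median log2 change was -0.87. In limma 9 of the 26 were called lower and 0 higher, where 0.128% of all genes were called lower and 0.0338% higher. Those that fell included Dlx1, Dlx2, Lhx6, Gbx1, Nkx2-1, Lhx8 and Dlx5 (log2 change -1.16, adjusted p = 0.0277). The summed level of the list, back-transformed from log2, was 1536 to 1539 in null samples and 2171 to 2485 in null-set wild types. In missense samples 19 of the 26 had a lower mean with a median of -0.20 and 0 were called, with Dlx1 at -0.32, Sp9 at -0.48 and Dlx2 at -0.52. At an unadjusted limma p under 0.05, 7 of the 26 were lower and 1 higher, where 2.33% of all genes were lower and 3.2% higher. The summed level was 1842 to 1995 in missense samples and 2115 to 2239 in their wild types. Of 24 products of interneurons and striatal neurons, 15 had a lower and 9 a higher mean in null samples. The median of their log2 changes was -0.08. Their summed level was 654 in both null samples and 622 to 654 in null-set wild types. By mean log2 level they were at 3.25 and 3.24 in null samples, against 3.39 and 3.56 in null-set wild types. Of these products 1, Arl4d, was called lower (log2 change -2.24, limma adjusted p = 0.00951), where 0.128% of all genes were called lower. In missense samples 15 of the 24 also had a lower mean and 0 were called, with a median of -0.10.

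Each of the 4 genes was also expressed relative to these lists in the same sample. Relative to the mean of the ventral transcription factors, Slc32a1 was at -0.02 ± 0.25 in null samples and -0.16 ± 0.18 in wild types (SD, n = 2 each), a difference of 0.14 with overlapping samples. Gad2 was at 1.37 ± 0.03 in null samples and 1.61 ± 0.08 in wild types (SD, n = 2 each), a difference of -0.24 with both null samples lower. The share of all genes without overlap on this scale was not computed. Gad1 and Abat differed by 0.24 and 0.31, with overlap. With 5 added to the linear values before taking logs, which lowers the weight of scarce transcription factors, the difference was -0.54 for Gad2, -0.097 for Slc32a1, -0.013 for Gad1 and 0.0076 for Abat. Leaving out 1 sample of the null set gave -0.29 to -0.19 for Gad2, and the sign of the other 3 differences depended on single samples. Slc32a1 was at -0.041 without null 2 and at 0.32 without null 1. Abat was at -0.0042 without null 2 and at 0.63 without null 1. Gad1 was at -0.14 without null 1 and -0.15 without wild type 1, and at 0.62 without null 2 and 0.63 without wild type 2.

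Relative to the mean of 30 genes expressed in all neurons, Gad2, Slc32a1 and Abat were still lower in both null samples. Gad2 was at -1.13 ± 0.31 in null samples and -0.01 ± 0.11 in wild types (SD, n = 2 each), a difference of -1.12. Slc32a1 differed by -0.74 and Abat by -0.57, both with no overlap, and Gad1 by -0.65 with overlap. On the deposited values both null samples lay below both wild types for 14.8% of all genes. The share on this relative scale was not computed. That of Gad1 shrank to -0.072 if null 2 was left out and to -0.23 if wild type 2 was, and was -1.22 and -1.06 if null 1 or wild type 1 was left out. The exact 2-sided permutation p was 0.333 for Gad2, Slc32a1 and Abat, the smallest possible. With all genes centred on these neuronal genes, Gad2 remained called in limma and Slc32a1 did not (log2 change -0.74, adjusted p = 0.138). In the missense set the differences relative to the neuronal genes were -0.14 for Gad2, -0.32 for Gad1, 0.02 for Slc32a1 and 0.27 for Abat, each with overlapping samples. Relative to the ventral transcription factors, Abat was at 0.94 ± 0.11 in missense samples and 0.71 ± 0.04 in wild types (SD, n = 3 each). All missense samples lay above all wild types there (exact 2-sided permutation p = 0.1, the smallest possible). On the deposited values Abat overlapped between these groups, and 6.02% of all genes had every missense sample above every wild type. The share relative to the transcription factors was not computed. Gad1, Gad2 and Slc32a1 differed by -0.36, -0.17 and -0.01, with overlap.

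**Figure D4:**
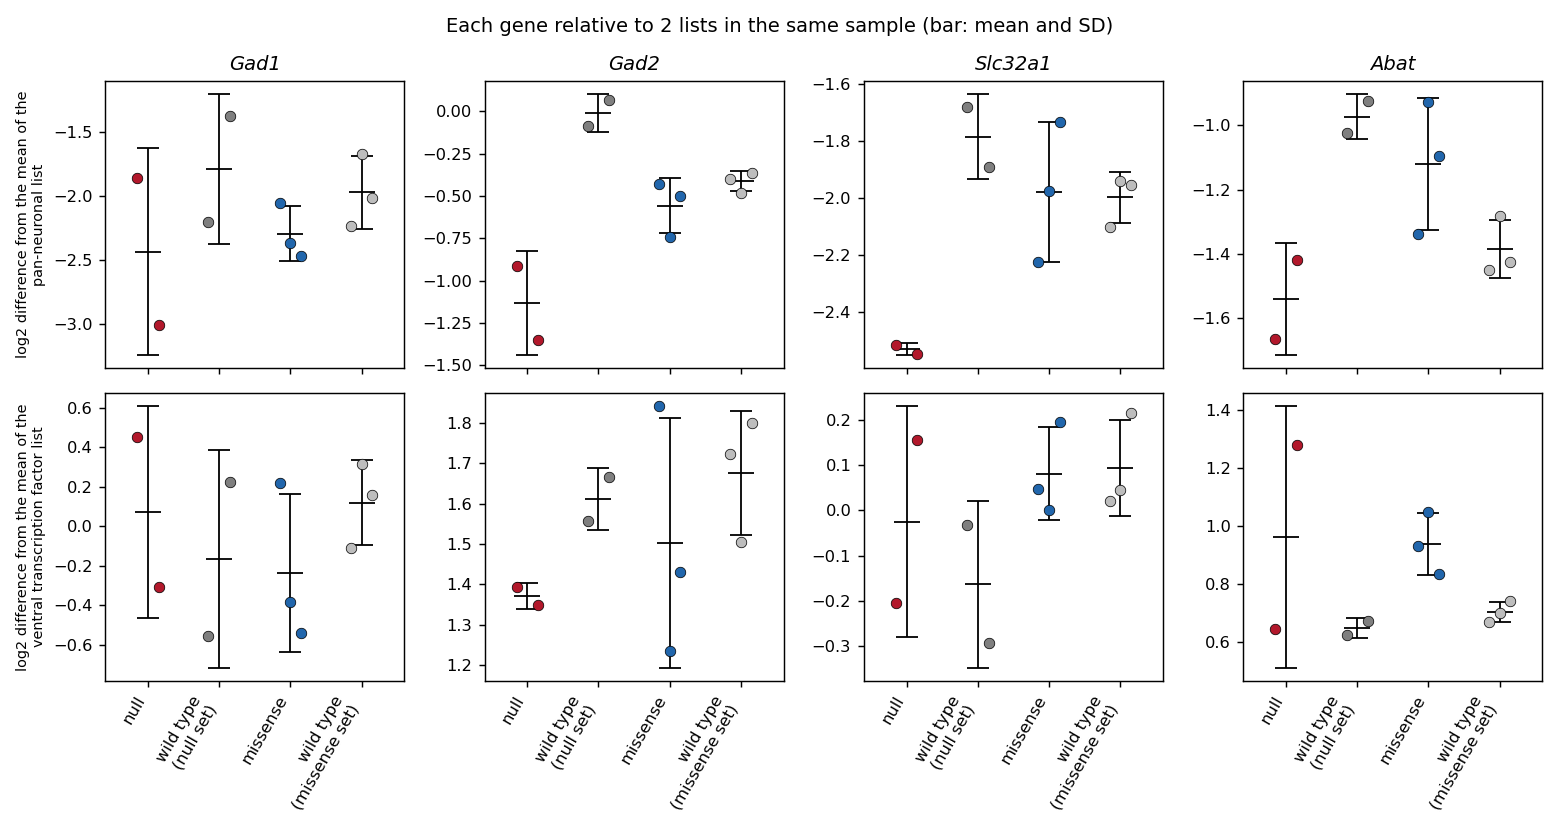
Log2 difference of each gene from the mean of the pan-neuronal list (upper row) and of the ventral transcription factor list (lower row) in the same sample (points), with the mean and SD of each group as bars. Against the neuronal list Gad2 averaged -1.13 in null samples and -0.01 in their wild types, and against the transcription factors 1.37 and 1.61.

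Markers of other regions and cell types moved with the null comparison in the same samples, and their part in the lower GABA genes was not tested. Of 29 genes of the diencephalon, hypothalamus and midbrain, 26 had a higher mean in null samples (median log2 change 1.28), and the summed level was 939 to 1252 in null samples and 540 to 647 in their wild types. Transcription factors of GABAergic neurons outside the telencephalon had higher means in 8 of 12 cases and lower means in 4, with log2 changes from -2.04 to 2.28. Of all genes, 54.6% had a higher mean in null samples. Lhx1 (0.78), Gata2 (1.93) and Tal2 (2.28) were among the higher ones. The sums of this list were 191 to 297 in null samples and 149 to 176 in wild types. Genes of microglia were higher in 19 of 19 cases (sums 206 to 207 in null samples and 107 to 114 in wild types), of mesenchyme and meninges in 21 of 21 (3633 to 4677 and 2598 to 2869), of the choroid plexus in 14 of 14 (441 to 538 and 271 to 306) and of the cortical hem in 19 of 20 (949 to 983 and 655 to 667). Of these 6 marker lists 1 gene was called, the hem gene Wnt8b (log2 change 1.08), where 0.0338% of all genes were called higher.

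In the missense set, most of these sums overlapped. The sums of the diencephalic list were 537 to 854 in missense samples and 542 to 862 in their wild types, and those of the mesenchymal list 3349 to 4574 and 2607 to 4214. Microglial genes summed to 173 to 214 in missense samples and 130 to 152 in wild types, without overlap. Genes of the cortical hem summed to 873 to 966 in missense samples and 771 to 851 in wild types, also without overlap. Neuronal genes were lower in 27 of 30 cases in null samples (median -0.22) and in 26 of 30 in missense samples (median -0.11), and 0 of them were called in either. Genes of glutamatergic cortical neurons and intermediate progenitors were lower in 15 of 22 cases in null samples (sums 1491 to 1646, wild types 1703 to 2006). In missense samples 20 of these 22 were lower (sums 1461 to 1779, wild types 1937 to 2020). Neither pair of sums overlapped, and 0 of the 22 genes were called in either comparison.

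**Figure D5:**
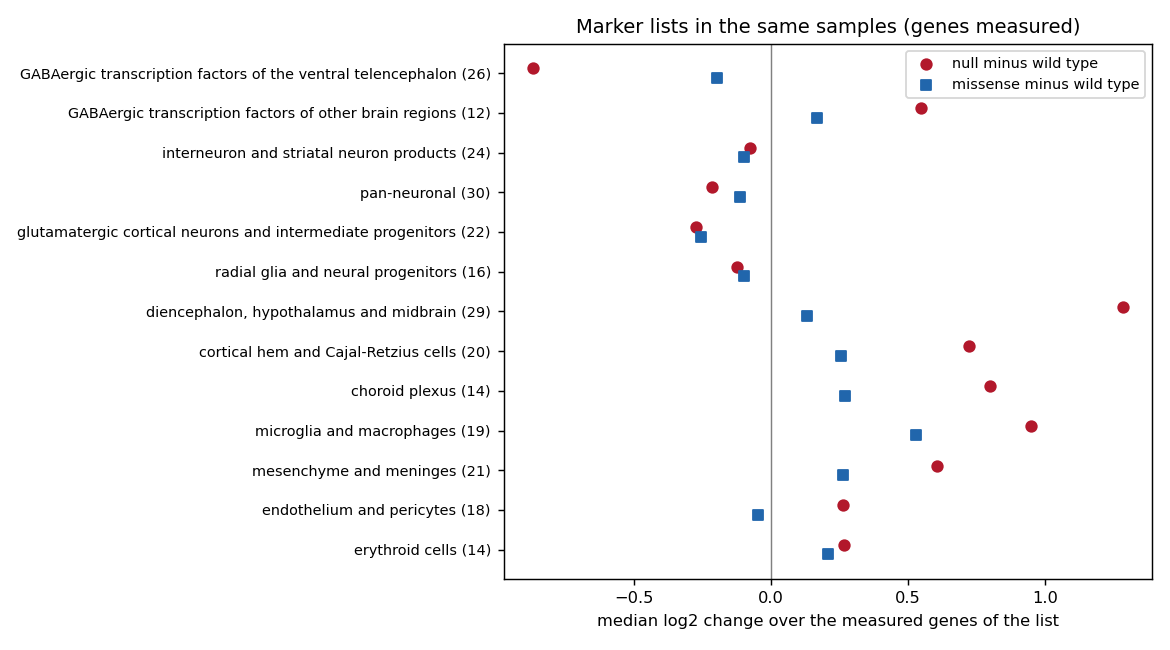
Median log2 change (x axis) of marker lists (rows, with the number of measured genes) in the null and missense comparisons. The ventral transcription factors lie at -0.87 in null and -0.20 in missense, and the diencephalic list at 1.28 in null and 0.13 in missense.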

How the data were processed

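The authors deposited log2 values of gene expression that were filtered and normalized, as the table's name says. GRCm39 is the build in the submitters' processing notes, and the sources used here do not state the aligner, counter or annotation. Back-transformed values of a sample add up to between 1000453 and 1000891, as for log2 CPM, so the depth, and with it the counting error, is unknown. Of 14797 genes 1 has no name and was left out. A model of 4 groups (genotype by title number) was fitted to 14796 genes in R 4.3.3 by limma 3.58.1, variances following the level, with 6 residual and 4.83 prior degrees of freedom, 2-sided tests and Benjamini-Hochberg adjustment over all genes (threshold 0.05). The data.table package (1.17.8), Python 3.11.15, pandas 2.3.3 and, for figures, matplotlib 3.10.9 were also used. The fit was tested on simulated data.

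The members, lists and tests were chosen with earlier results of these data known. The rule for named genes takes the 4 members, Polr1a, every gene of the synthesis, breakdown, reuptake and GABA-B lists, up to 3 genes of smallest p per other list and comparison, and the 5 genes most correlated with each member. A few of the genes it takes are not reported here. The further ventral genes called in null were named after their values were seen. Sequences are from RefSeq tables of GRCm38.p6, which hold a promoter window for 3 of the 4 members. Alternatives were pooled wild types, other scalings, offsets of 1 and 5, dropping the lowest 25% of genes by level, other variance models, 1 set alone and leaving out each sample. A group left with 1 sample was assumed to have the spread of the others.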

Additional observations from a re-analysis of the deposited data

How the results depend on the processing

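The null changes of Gad1, Gad2, Slc32a1 and Abat kept their sign in all 11 alternatives and in all 10 fits without 1 sample. With all wild types pooled, limma called 59 genes in null. The difference of effects then becomes null minus missense samples, in which allele and set cannot be told apart. It called 9 genes, among them Gad2 (-0.92, limma adjusted p = 0.0407) and Slc32a1 (-0.90, 0.0326). Of the other pathway genes 1 was called in null with pooled wild types, median centring, quantile normalization or the lowest 25% of genes left out. Centred on the neuronal genes, Slc32a1 changed by -0.74 in null (adjusted p = 0.138) and 0.019 in missense, and the difference called 1 gene, as it did with median centring. With variances that do not follow the level, Gad2 (-1.35, adjusted p = 0.0724) and Slc32a1 (-0.97, 0.0843) missed the threshold, 6 genes were called in null and 0 in the difference. With 1 set alone, Gad2 (-1.35, adjusted p = 0.273) and Slc32a1 (-0.97, 0.398) missed it and 0 genes were called in null, where fewer samples estimate the variance. With an offset of 5 the difference called 7 genes. Without 1 sample, the null change was -1.48 to -1.22 for Gad2 and -1.07 to -0.88 for Slc32a1, and 2 to 23 genes were called in null, 2 to 10 in missense and 1 to 10 in the difference. The difference of Gad1 was -0.91 to 0.029, at 0.025 without null 2 and 0.029 without null-set wild type 2. The missense changes, called in 0 of these fits, were -0.36 to -0.16 for Gad2 (highest without missense 2), -0.60 to -0.30 for Gad1, -0.16 to -0.016 for Slc32a1 (without missense 3 and without missense 1) and 0.057 to 0.21 for Abat (lowest without missense 2). Other causes were not tested. No paired analysis was possible because the last number of each title, the only one that could pair samples within a set, is not shared between the groups compared.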
